A study of Rattus norvegicus with 60 samples.

Results

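Ucp2 and Ucp3, which encode 2 of the uncoupling proteins of the mitochondrial inner membrane, were followed through the livers of 60 male Sprague-Dawley rats given perfluorooctanoic acid (PFOA) or vehicle. The pair was taken by name from the table of read counts, which holds 32883 genes, and each name matched 1 row (Ucp3, ENSRNOG00000017716; Ucp2, ENSRNOG00000017854). The rats were housed singly and received water (vehicle) or PFOA at 1, 5 or 15 mg/kg per day by oral gavage in a volume of 10 ml/kg, for 7, 14 or 28 days. That gave 12 groups of 5 livers. The study's text puts the rats at 5 to 6 weeks of age, and the sample labels give 7 to 8 weeks at day 7, 8 to 9 weeks at day 14 and 10 to 11 weeks at day 28. All groups were males of 1 strain, and every dosed group is compared here with the vehicle group of its own day. The labels do not number the rats, so a number such as rat 4 only names a library in accession order. The labels give each library as its own animal. The question the design asks is at which dose and after how many days each gene responds.

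Uncoupling proteins belong to the solute carrier family 25 of mitochondrial carriers. Ucp1, the founding member, lets protons back across the inner membrane of brown fat mitochondria and so turns respiration into heat. Ucp2 is found in many tissues, and in healthy liver it is known chiefly from Kupffer cells, the resident macrophages, with little in hepatocytes. Ucp3 is known from skeletal muscle, brown fat and heart, where its mRNA rises with fasting and fatty acid supply. Both genes are known targets of the peroxisome proliferator-activated receptors (PPARs), and PFOA is a perfluorinated fatty acid analogue known to activate PPARα in rodent liver.

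The 2 genes lie side by side on rat chromosome 1 in the RefSeq annotation of assembly GRCr8, on the plus strand, with no annotated gene between them. Their promoters are shown because PPARs bind repeats of the hexamer AGGTCA, and the pair differed in these letters. Each sequence is the 250 bases before the annotated start, from RefSeq (GRCr8), 5′ to 3′ on the plus strand, with the hexamers in capitals. The Ucp3 window is chr1:164227660-164227909 and the Ucp2 window is chr1:164251123-164251372.
Ucp3: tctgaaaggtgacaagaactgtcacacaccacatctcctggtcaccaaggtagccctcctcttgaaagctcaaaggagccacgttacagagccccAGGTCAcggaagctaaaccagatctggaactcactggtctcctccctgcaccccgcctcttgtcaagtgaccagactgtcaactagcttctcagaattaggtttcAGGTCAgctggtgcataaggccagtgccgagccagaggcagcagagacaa
Ucp2: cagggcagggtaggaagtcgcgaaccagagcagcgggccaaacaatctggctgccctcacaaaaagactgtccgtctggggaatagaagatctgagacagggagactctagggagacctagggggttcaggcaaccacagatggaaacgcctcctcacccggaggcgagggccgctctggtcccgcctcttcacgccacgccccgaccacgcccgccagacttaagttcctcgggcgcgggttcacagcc
The Ucp3 window held 2 hexamers on the plus strand, whose first bases lie 155 and 50 bases before the start, and the Ucp2 window held none on either strand (AGGTCA or its reverse complement TGACCT). Among 33469 rat promoters of the same length, 14.1% held at least 1 such hexamer and 1.27% held 2 or more. Neither window held the direct repeat with 1 base between the hexamers (AGGTCANAGGTCA, in 0.0508% of promoters) or its relaxed form (AGGNCANAGGNCA, in 0.368%), a search that overlaps with that for the hexamer. Both lacked the TATA box letters TATAAA, found in 12.9% of promoters on either strand, and the GC box letters GGGCGG, found in 30.5%. The Ucp2 window was richer in G and C (62.8%, against 53.6% for Ucp3 and a median of 51.2% over all promoters). It had 17 CpG dinucleotides, a number reached by 21.9% of promoters, where Ucp3 had 4 and the median promoter 5. These matches describe letters only, and binding was not measured.

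Polyadenylated RNA of each liver was sequenced as stranded libraries, and the deposited values were raw reads per gene. Libraries held 7965497 to 24770119 counted reads, with a median of 12606152, and levels are given as CPM, reads scaled to a fixed library total after trimmed-mean (TMM) scaling, so that a single read came to 0.0460 CPM in one library of day 7. They compare libraries for 1 gene but not one gene with another, since transcript lengths were not used here. Differences are log2 fold changes with their standard error (SE) from edgeR's quasi-likelihood test on 12167 genes that passed a filter on low counts, with p-values adjusted by the Benjamini-Hochberg method over all of them, and a gene is called at an adjusted p under 0.05. Both genes passed that filter. Ucp3 passed only through the dosed groups in which it is high. Libraries of 1 group also differed along 1 shared axis that held 58.9% of the within-group variance and ran against 73 ribosomal protein genes (median correlation within groups -0.98). It is called the library score here, in SD over the 60 libraries.

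Ucp3 was close to absent in vehicle liver. The 15 vehicle libraries together held 4 Ucp3 reads, and all 4 came from day 14, where rats 1 to 4 had 1 read each and rat 5 had none. Pooled, that is 0.0244 CPM (95% Poisson interval 0.00665 to 0.0625, counting error only). The vehicle groups of days 7 and 28 had 0 reads, which with 3 counts over 5 libraries allows a level of up to 0.0553 and 0.0503 CPM. At 1 mg/kg Ucp3 was no more abundant, with 2 reads in 15 libraries, 1 in rat 5 of day 7 and 1 in rat 1 of day 28. Pooled, that is 0.00934 CPM (95% Poisson interval 0.00113 to 0.0337). At day 14, where vehicle had 4 reads and 1 mg/kg none, the adjusted p was 0.25. On days 7 and 28 both groups were at or under 3 reads and no fold is given.

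At 5 mg/kg Ucp3 reads appeared in 14 of 15 libraries, 639 in all. On day 7 the 5 livers held 5, 16, 2, 16 and 0 reads, or 0.315, 1.15, 0.197, 1.14 and 0 CPM. Rats 2 and 4 were high, rat 5 had none, and the group therefore touched the vehicle group, in which every library was at 0. The mean was 0.560 ± 0.544 CPM (SD, n = 5). The reads of the 5 livers pooled came to 0.634 CPM, at least 11.5-fold above a vehicle group credited with 3 reads, and the rise was called by edgeR (adjusted p = 0.00914) in a comparison where 3.27% of tested genes rose. By limma-voom the same comparison was not called (log2 fold change 3.16, adjusted p = 0.146).

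On day 14 at 5 mg/kg the 5 livers held 7, 26, 59, 13 and 31 Ucp3 reads, or 0.844, 1.76, 4.45, 1.35 and 4.81 CPM. Rats 3 and 5 were highest, and every library lay above the vehicle group, whose highest was 0.142 CPM. The mean was 2.64 ± 1.85 CPM against 0.0851 ± 0.0571 CPM (SD, n = 5 each), with a fitted log2 fold change of 4.87 ± 0.90 (SE, edgeR adjusted p = 0.000182), a fold of 29.1 with a 95% interval from the SE of 8.62 to 98.6. In that comparison 5.47% of genes rose, and for 3.85% all 5 dosed libraries lay above all 5 vehicle libraries. The vehicle side of this fold rests on 4 reads, and the log2 fold change was 3.56 with a prior count of 2 and 4.14 by limma-voom. Rat 5, the highest, is also the 1 library with reads of the brown fat gene Ucp1, described with the markers of other tissues. Leaving out any 1 library kept the log2 fold change between 4.58 and 5.10, and each of these fits called it.

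On day 28 at 5 mg/kg the livers spread widely. They held 37, 120, 239, 2 and 66 Ucp3 reads, or 2.65, 7.48, 14.3, 0.133 and 3.11 CPM, with rat 3 at the top and rat 4 at the bottom. All 5 still lay above the vehicle group, in which no library had a read. The mean was 5.53 ± 5.56 CPM (SD, n = 5), and the pooled level of 5.59 CPM was at least 111-fold above a vehicle group credited with 3 reads, a rise called by edgeR (adjusted p = 2.86e-07). Rat 3 carried much of it: without that library the mean was 3.34 CPM and the bound 67.5-fold, and the rise was still called. In that comparison 5.63% of genes rose and 4.40% did not overlap. Rat 4 was also the lowest of its group for 8 of the 10 fatty acid and regulator genes followed beside the pair, with 260 CPM of Acot1 where the group mean was 493, and 16.8 CPM of Cpt1b where the group mean was 97.0. Its library score was -0.50, the lowest of its group, where the others ran from 0.41 to 0.97. How many of all genes were lowest in this library was not counted.

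At 15 mg/kg every liver held Ucp3 reads, 3565 in 15 libraries. On day 7 the levels were 12.6, 4.28, 4.0, 8.29 and 8.25 CPM, from 45 to 158 reads. The mean was 7.47 ± 3.51 CPM (SD, n = 5), and the pooled level of 7.64 CPM was at least 138-fold above vehicle credited with 3 reads (edgeR adjusted p = 1.26e-07). In this comparison 6.77% of genes rose and 5.19% did not overlap. On day 14 the levels were 16.8, 12.8, 11.6, 7.06 and 13.2 CPM, a mean of 12.3 ± 3.53. The fitted log2 fold change against vehicle was 7.09 ± 0.85 (SE, edgeR adjusted p = 6.43e-08), a fold of 136 with a 95% interval of 42.8 to 435 (log2 fold change 5.73 with a prior count of 2), where 12.7% of genes rose and 6.78% did not overlap. On day 28 the levels were 19.6, 29.4, 45.4, 21.8 and 39.1 CPM, and all 5 stood above every other library of the study. The mean was 31.1 ± 11.1 CPM, and the pooled level of 29.8 CPM was at least 593-fold above vehicle credited with 3 reads (edgeR adjusted p = 2.12e-10), where 8.89% of genes rose and 5.84% did not overlap.

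**Figure D1:**
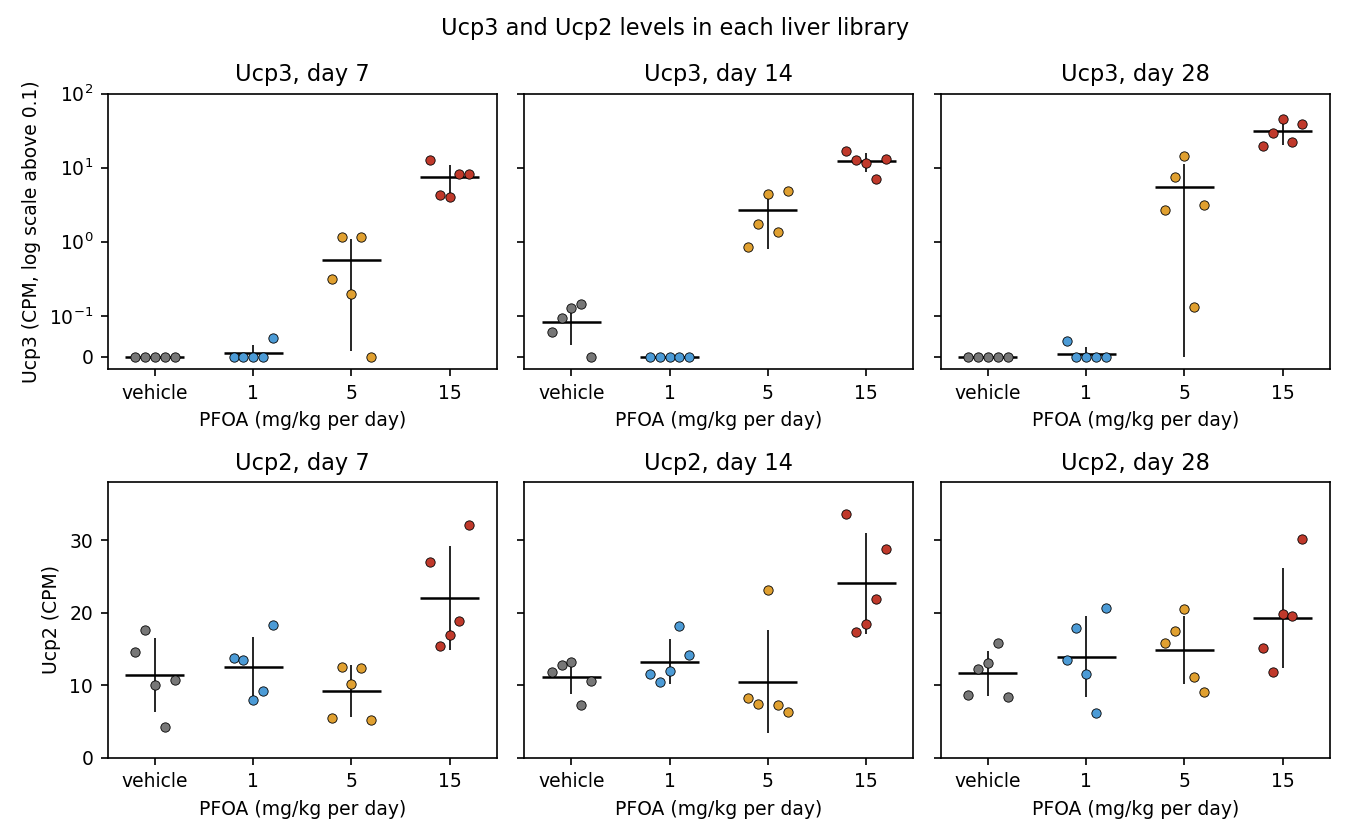
Ucp3 and Ucp2 in each library (CPM) by dose of PFOA and day, with the mean (horizontal line) and SD (vertical line) of each group of 5, on a log scale above 0.1 CPM for Ucp3. Ucp3 sits at or near 0 in vehicle and at 1 mg/kg and is highest at 15 mg/kg on day 28 (19.6 to 45.4 CPM), while Ucp2 has reads in every library, between 4.22 and 33.6 CPM.

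The onset of Ucp3 by the test was therefore 5 mg/kg on each of the 3 days, and by separation of all 5 libraries from all 5 vehicle libraries it was 15 mg/kg on day 7 and 5 mg/kg on days 14 and 28. The steps between neighbouring doses place it in the same interval. Between 1 and 5 mg/kg Ucp3 rose on day 7 (log2 fold change 4.64 ± 1.21, edgeR adjusted p = 0.0256), on day 14 (adjusted p = 5.21e-05, at least 54.3-fold above a 1 mg/kg group credited with 3 reads) and on day 28 (8.04 ± 0.97, adjusted p = 4.21e-06). The 1 mg/kg side of the day 7 and day 28 steps was a single read, and the ratios of group levels were 41.5 (95% counting interval 7.02 to 1680) and 481 (85.9 to 19031). In these 3 steps 1.50%, 6.88% and 0.222% of genes rose. Between 5 and 15 mg/kg Ucp3 rose on day 7 (3.62 ± 0.63, adjusted p = 0.00786), where 0.164% of genes rose and Ucp3 had the smallest p of the 12167 genes. The step on day 14 was 2.23 ± 0.57 (edgeR adjusted p = 0.173) and on day 28 2.49 ± 0.55 (adjusted p = 0.109), and neither was called. On both days all 5 livers at 15 mg/kg lay above all 5 at 5 mg/kg. How many of all genes separate in this way between doses was not counted. With the library score in the fit, the day 28 step was called (2.57 ± 0.46, edgeR adjusted p = 0.00574). In that fit 0.123% of genes were called in either direction, against 0.0411% without the score, where 0.0329% rose.

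Days could be compared within a dose. At 5 mg/kg Ucp3 was higher on day 28 than on day 7 by 3.18 ± 0.63 on the log2 scale (edgeR adjusted p = 0.00482), a fold of 9.07 (95% interval 3.86 to 21.3), where 0.773% of genes rose, and 4 of 5 livers lay above the highest of day 7. The difference of day 14 from day 7 was 2.11 ± 0.64 (adjusted p = 0.29) and was not called. At 15 mg/kg all 5 livers of day 28 lay above all of day 7 and of day 14, a separation not counted over all genes. The difference from day 7 was 2.05 ± 0.54 (edgeR, unadjusted p = 0.000504, adjusted p = 0.279), which did not pass adjustment over all genes. These contrasts were added after the levels were seen and do not take off the vehicle group. Rats of a later day were also older by their labels, so duration and age cannot be told apart in these contrasts. The mean library score at 5 mg/kg was -0.55 on day 7 and 0.47 on day 28. No fit of these contrasts with the score is given here. The tests of a change in the dose effect from day 7 to day 28 could not be estimated for Ucp3, since its vehicle groups were at 0 on both days. From day 7 to day 14 these changes were not called (-1.12 ± 1.28 at 5 mg/kg and -2.51 ± 1.92 at 15 mg/kg, edgeR adjusted p = 1 and 0.996). The size and sign of both changes rest on vehicle groups with 0 reads on day 7 and 4 on day 14. They therefore give no direction for the effect. In the order of the 12 group means, each group of Ucp3 overlapped its neighbour except the last, 15 mg/kg on day 28 (19.6 to 45.4 CPM), which lay above 15 mg/kg on day 14 (7.06 to 16.8 CPM).

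Ucp2 was present in every library, and it moved far less. In vehicle liver its levels were 14.6, 17.6, 9.98, 4.22 and 10.7 CPM on day 7, a mean of 11.4 ± 5.07 (SD, n = 5). On day 14 they were 11.8, 12.8, 13.2, 7.26 and 10.5 CPM (11.1 ± 2.39), and on day 28 they were 8.62, 12.3, 13.0, 15.8 and 8.39 CPM (11.6 ± 3.14). The vehicle groups overlapped throughout, with differences from day 7 of -0.040 ± 0.34 on day 14 and 0.022 ± 0.33 on day 28 on the log2 scale (edgeR adjusted p = 0.982 and 1).

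At 1 and 5 mg/kg Ucp2 was not called on any day. At 1 mg/kg the means were 12.6 ± 4.11, 13.2 ± 3.08 and 13.9 ± 5.63 CPM on days 7, 14 and 28, and the log2 fold changes of 0.14 ± 0.33, 0.25 ± 0.33 and 0.26 ± 0.33 had 95% intervals that reached from -0.51 to 0.91 over the 3 days (edgeR adjusted p = 1, 0.61 and 0.611). In these comparisons 0.0904%, 3.76% and 1.85% of genes rose. At 5 mg/kg the means were 9.16 ± 3.59, 10.5 ± 7.08 and 14.8 ± 4.68 CPM, with log2 fold changes of -0.32 ± 0.34, -0.080 ± 0.34 and 0.35 ± 0.33 (edgeR adjusted p = 0.672, 0.93 and 0.528). The intervals, between -0.98 and 1.00, leave room for a change of up to 2-fold either way. On day 14 at 5 mg/kg rat 3 stood apart, with 23.1 CPM where the other 4 had 8.20, 7.44, 7.28 and 6.36 CPM. The same rat had the second highest Ucp3 of the group, 4.45 CPM.

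At 15 mg/kg Ucp2 was called higher on days 7 and 14. On day 7 the 5 livers had 26.9, 15.4, 16.9, 18.8 and 32.0 CPM (22.0 ± 7.14, SD, n = 5), all above the vehicle mean and 3 of them above the highest vehicle library. Of all tested genes, 6.77% rose in this comparison. The Ucp2 log2 fold change was 0.94 ± 0.33 (SE, edgeR adjusted p = 0.0493), a fold of 1.92 with a 95% interval of 1.22 to 3.03. Leaving out 1 of 7 of the 10 libraries in turn ended this call, with the adjusted p reaching 0.167 without rat 5 of the dosed group. With the library score in the fit, which is drawn from these same counts, it was called (0.99 ± 0.27, edgeR adjusted p = 0.00282). In that fit 37.8% of genes were called in either direction, against 14.0% without the score.

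On day 14 the 5 livers had 33.6, 17.4, 18.5, 21.9 and 28.8 CPM of Ucp2 (24.0 ± 6.97), and all 5 lay above all 5 vehicle libraries. The log2 fold change was 1.11 ± 0.34 (SE, edgeR adjusted p = 0.0125), a fold of 2.16 with a 95% interval of 1.37 to 3.40, and it was called without any 1 of the 10 libraries. In this comparison 12.7% of genes rose and 6.78% did not overlap. On day 28 the levels were 15.1, 11.8, 19.8, 19.5 and 30.1 CPM (19.3 ± 6.92), and 3 of 5 lay above the highest vehicle library. This difference of 0.73 ± 0.33 (edgeR, unadjusted p = 0.0335, adjusted p = 0.131) was not called. The change in the effect of 15 mg/kg from day 7 to day 28 was -0.22 ± 0.47 and to day 14 0.17 ± 0.47 (edgeR adjusted p = 0.997 and 0.996), so the day on which the gene passed the threshold is not shown to differ from the day on which it did not. Between 5 and 15 mg/kg the differences of 1.26 ± 0.34 on day 7 (edgeR adjusted p = 0.0801) and 1.19 ± 0.34 on day 14 (adjusted p = 0.219) did not pass. With the library score in the fit, the day 7 step was called (1.17 ± 0.27, edgeR adjusted p = 0.00892). In that fit 6.17% of genes were called in either direction, against 0.329% without the score. On day 7 all 5 livers at 15 mg/kg lay above all 5 at 5 mg/kg, a separation not counted over all genes. In the order of the 12 group means of Ucp2, from 9.16 CPM at 5 mg/kg on day 7 to 24.0 CPM at 15 mg/kg on day 14, every group overlapped its neighbour.

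The library score moved with Ucp2 more than with Ucp3. Within groups the correlation of the score with log2 CPM was 0.59 for Ucp2 and 0.24 for Ucp3 over the 60 libraries, a description only, since the points share libraries, and the Ucp3 value includes the vehicle and 1 mg/kg groups, where no library had more than 1 read. Over the 30 libraries at 5 and 15 mg/kg alone these correlations were 0.68 for Ucp2 and 0.32 for Ucp3. Group means of the score ran from -0.86 at 5 mg/kg on day 14 to 0.77 at 1 mg/kg on day 28, and were -0.62 in vehicle and 0.17 at 15 mg/kg on day 14. With the score in the fit, the Ucp2 effect of 15 mg/kg was 0.99 ± 0.27 on day 7, 0.85 ± 0.27 on day 14 and 0.52 ± 0.27 on day 28 (edgeR adjusted p = 0.00282, 0.0107 and 0.128), and the same 2 days were called.

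**Figure D2:**
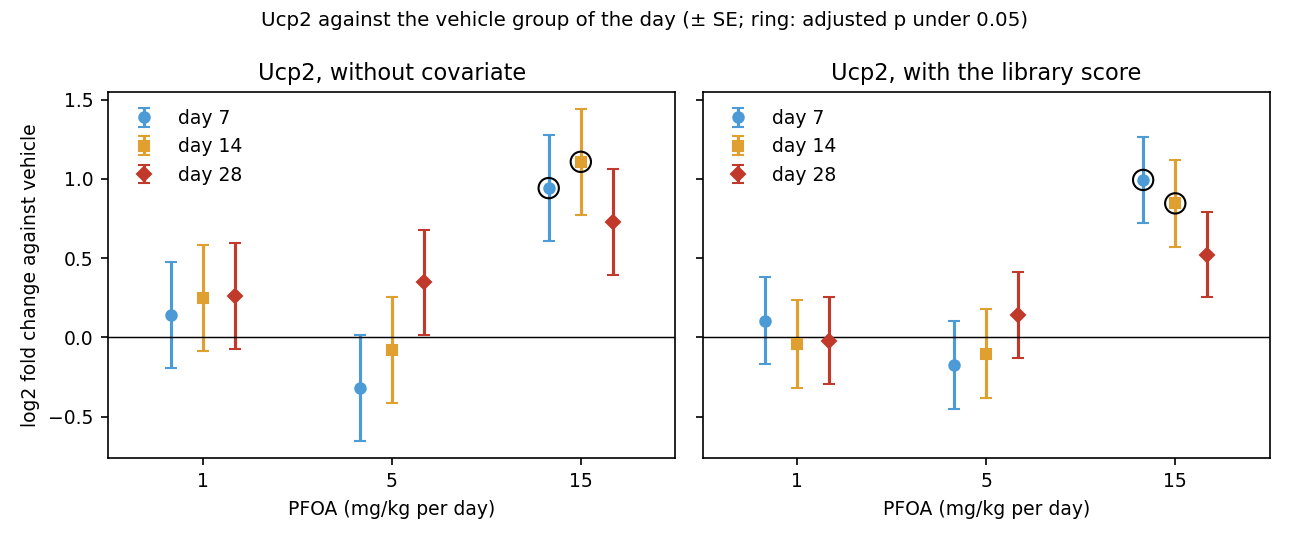
Ucp2 against the vehicle group of the day, as log2 fold change ± SE by dose, from the fit without a covariate (left) and with the library score (right). The rings mark the calls at an adjusted p under 0.05, which are 15 mg/kg on day 7 (0.94, and 0.99 with the score) and day 14 (1.11, and 0.85 with the score).

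**Figure D3:**
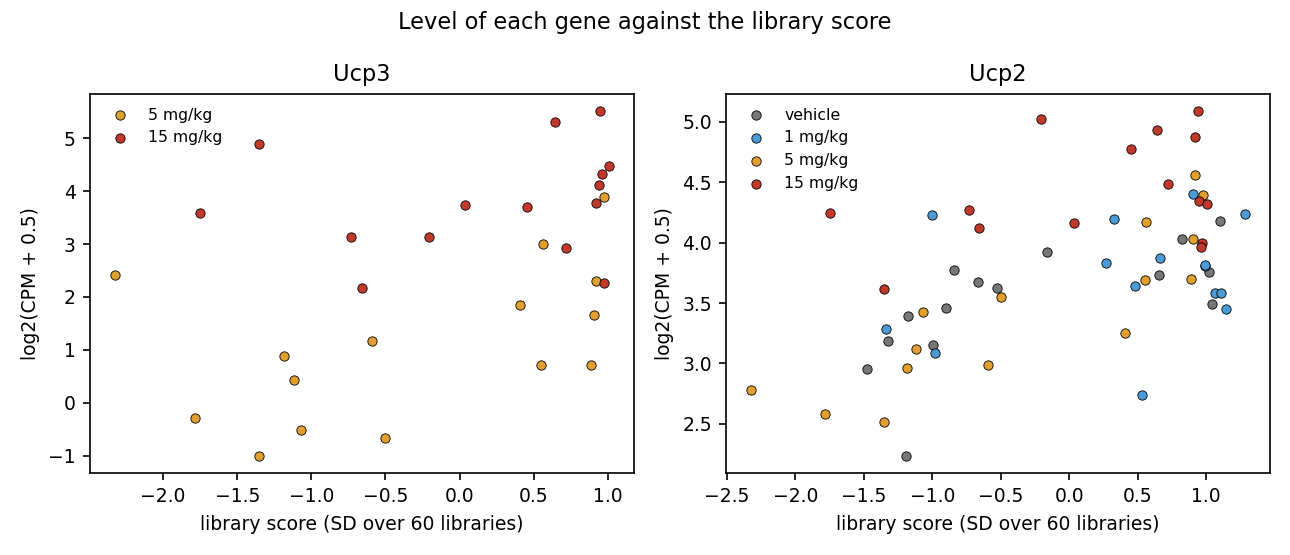
Ucp2 and Ucp3 in each library as log2(CPM + 0.5) against the library score in SD, for Ucp3 in the 5 and 15 mg/kg groups and for Ucp2 in all groups. Within groups the correlation over the plotted libraries is 0.59 for Ucp2 (60 libraries) and 0.32 for Ucp3 (30 libraries).

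In liver tissue fewer cells of a type and less RNA per cell cannot be told apart. Markers of Kupffer cells were followed for this reason. Of 11 tested Kupffer markers, 2, 9 and 4 fell at 15 mg/kg on days 7, 14 and 28 and none rose, with median log2 fold changes of -0.86, -1.44 and -0.87 where the medians of all genes were -0.03, 0.04 and -0.01. In these comparisons 7.21%, 10.2% and 8.31% of all genes fell. At 5 mg/kg 0, 4 and 0 of the 11 fell and none rose, where 2.87%, 5.27% and 4.85% of all genes fell. Their summed level on day 14 was 617 to 1101 CPM in vehicle and 173 to 469 CPM at 15 mg/kg, without overlap. On day 7 the sums overlapped (425 to 845 CPM in vehicle, 224 to 509 CPM at 15 mg/kg). So did those of day 28 (355 to 682 CPM and 213 to 371 CPM). None of the markers was at 0 in a whole group. Examples on day 28 are the complement genes C1qa (84.0 to 32.7 CPM), C1qb (50.2 to 24.0 CPM) and C1qc (48.3 to 20.5 CPM). The part of the macrophages in the Ucp2 result was not tested.

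Hepatocyte markers were by far the most abundant of the marker lists, and 6, 4 and 4 of 6 fell at 15 mg/kg on days 7, 14 and 28, among them the plasma protein genes Ttr (12527 to 3260 CPM), Tf (23214 to 10107 CPM) and Serpina1 (12735 to 6518 CPM) on day 28. Of 6 tested lymphocyte markers 1, 3 and 1 fell, among them Cd8a of cytotoxic T cells (1.99 to 0.753 CPM on day 28), and of 3 erythroid markers 3 fell on day 7 and none later. Stellate cell markers fell in 1, 1 and 0 of 5, and endothelial markers in 0, 1 and 0 of 3. None of these 5 lists had a member that rose at 15 mg/kg. On days 7, 14 and 28, 7.21%, 10.2% and 8.31% of all genes fell and 6.77%, 12.7% and 8.89% rose. In lists of 3 to 6 genes, a fall of 0 or 1 is near the share of all genes.

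Skeletal muscle is the classic site of Ucp3. Of 10 muscle markers 7 were found in the counts, and Myh4, Myh2 and Atp2a1 had no row of that name. Those found summed to at most 2.65 CPM in any library, and to between 0.180 and 1.01 CPM at 15 mg/kg on day 28. Ucp3 stood there at 19.6 to 45.4 CPM, though CPM does not compare one gene with another. A part of muscle in the Ucp3 result was not tested. The 1 muscle marker that passed the filter, the myosin light chain gene Mylpf, was not called at any dose or day. Ucp1 (ENSRNOG00000003580), the brown fat member, did not pass the filter. It had 122 reads in a single library, rat 5 at 5 mg/kg on day 14, and none in the other 59. That library also had the most reads of the fat cell hormone gene Adipoq (173, 26.8 CPM), 120 CPM of the lipid droplet gene Cidea, and the lowest library score (-2.32). Without it, the Ucp3 rise at 5 mg/kg on day 14 was still called. Of the other adipose markers only Cidea and the complement factor gene Cfd were tested. Cidea was called higher at 5 and 15 mg/kg on all 3 days (8.68 to 42.3 CPM at 15 mg/kg on day 28), and Cfd was not called at any dose or day (on day 28, 9.37 to 3.74 CPM, edgeR adjusted p = 0.142).

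The 2 genes can also be counted against each other inside a library. The Ucp3 share is the percentage of Ucp3 among the reads of both genes, which no scaling of the library can move. It was 0 in vehicle on days 7 and 28 and 0.825% ± 0.709 on day 14. At 1 mg/kg it was at most 0.282% in any library.

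At 5 mg/kg the Ucp3 share was 4.83% ± 3.81 on day 7, 20.7% ± 13.0 on day 14 and 22.4% ± 15.2 on day 28 (SD, n = 5). At 15 mg/kg it was 24.7% ± 5.96, 34.0% ± 6.90 and 61.4% ± 8.48. On day 28 at 15 mg/kg all 5 livers, between 52.8% and 71.4%, held more reads of Ucp3 than of Ucp2, with no correction for transcript length. By the exact two-sided permutation test on 5 against 5 libraries, p was 0.00794 for the last 5 of these 6 groups, which is the smallest the design allows, or 0.0143 after adjustment over the 9 comparisons. For 5 mg/kg on day 7 the exact p was 0.0476, or 0.0612 after adjustment. The 3 comparisons at 1 mg/kg had exact p values of 1, 0.0476 and 1, or 0.0612 after adjustment for the second, in which vehicle was the higher group.

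**Figure D4:**
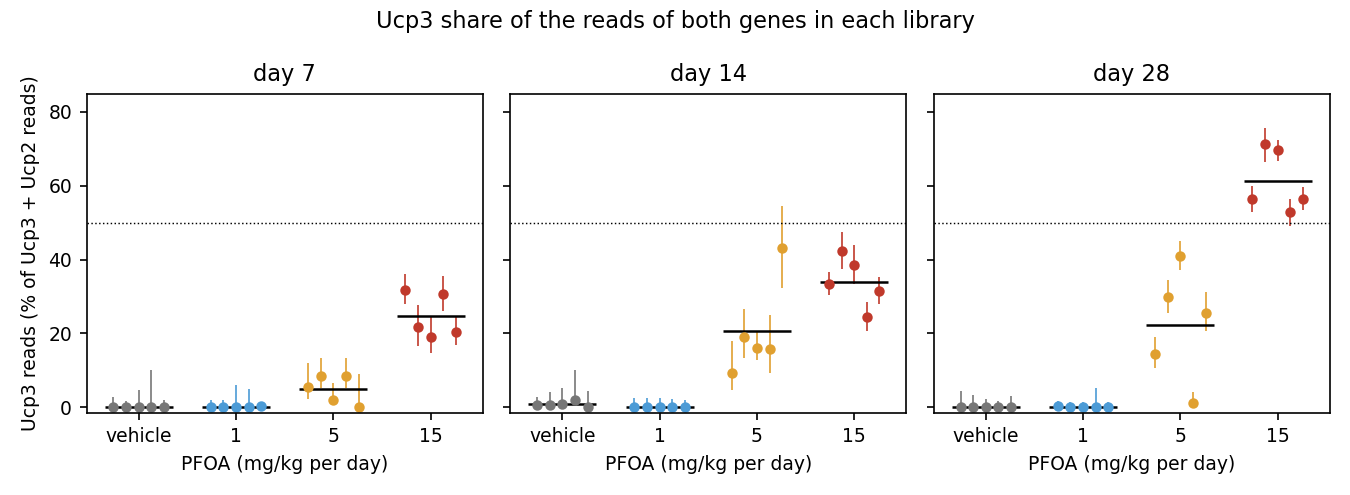
Ucp3 reads as a percentage of the reads of Ucp2 and Ucp3 together, per library (points, with 95% Wilson intervals of the reads as vertical lines) and as the mean of each group of 5 (horizontal lines), by dose and day, with 50% dotted. Shares are at or near 0 in vehicle and at 1 mg/kg, and all 5 livers at 15 mg/kg on day 28 lie over 50% (52.8% to 71.4%).

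Among the other uncoupling proteins of the family, Slc25a14, Slc25a27 and Slc25a30 passed the filter. Slc25a30 (kidney mitochondrial carrier protein) rose at 5 mg/kg on day 28 from 19.7 to 113 CPM (log2 fold change 2.51 ± 0.63, edgeR adjusted p = 0.00501) and at 15 mg/kg to 222 CPM (3.49 ± 0.66, adjusted p = 7.77e-05). Its vehicle livers spread from 4.70 to 150 CPM over the 3 days, and no dose was called on days 7 and 14. Slc25a27 (Ucp4, known from brain) was low, at 0.438 CPM in vehicle on day 14, and was called higher there at 5 mg/kg (1.48 ± 0.41) and 15 mg/kg (1.68 ± 0.40) and on day 28 at 5 mg/kg (1.32 ± 0.38). Slc25a14 (Ucp5) was not called at any dose or day, with 2.65 CPM in vehicle and 1.45 CPM at 15 mg/kg on day 28 (edgeR adjusted p = 0.064). Of 38 other mitochondrial carriers, 7, 9 and 7 rose and 4, 8 and 9 fell at 15 mg/kg on days 7, 14 and 28, with median log2 fold changes of -0.20, -0.10 and -0.15, where 6.77%, 12.7% and 8.89% of all genes rose and 7.21%, 10.2% and 8.31% fell. Slc25a20, which carries acylcarnitines into the matrix for fatty acid oxidation, went from 241 to 505 CPM on day 28, and the adenine nucleotide carrier Slc25a5 from 122 to 190 CPM. The oxodicarboxylate carrier Slc25a21 fell from 5.82 to 2.01 CPM.

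Genes of fatty acid handling were counted beside the pair. Of 22 such genes, 4, 15 and 14 rose at 1 mg/kg on days 7, 14 and 28, where 0.0904%, 3.76% and 1.85% of all genes rose. At 5 mg/kg 14, 18 and 19 rose, where 3.27%, 5.47% and 5.63% of all genes did, and at 15 mg/kg 18, 19 and 19, where 6.77%, 12.7% and 8.89% did. None of the 22 fell in these comparisons. Their median log2 fold changes at 15 mg/kg were 1.53, 2.01 and 1.83. These lists and the 10 companions below were chosen with earlier results of these data known, so their counts are a description. The acyl-CoA thioesterase gene Acot1, the peroxisomal bifunctional enzyme gene Ehhadh and the fatty acid hydroxylase gene Cyp4a1 were called from 1 mg/kg on all 3 days. Angptl4, a secreted inhibitor of lipoprotein lipase, Cpt1b, the muscle-type carnitine palmitoyltransferase, and Pdk4, the kinase that shuts off pyruvate dehydrogenase, were called from 5 mg/kg on day 7 and from 1 mg/kg later. Fgf21, a liver hormone of fasting, came at 15 mg/kg on day 7 and at 5 mg/kg later. Cpt1a, the liver-type enzyme, was called at no dose on day 7, at 15 mg/kg on day 14 and from 1 mg/kg on day 28.

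Cpt1b, like Ucp3 better known from muscle, had a measurable floor. Its vehicle means were 1.05 ± 0.317, 0.863 ± 0.298 and 1.03 ± 0.949 CPM, and at 15 mg/kg it stood at 106 ± 31.0, 143 ± 54.1 and 165 ± 66.5 CPM on days 7, 14 and 28 (SD, n = 5). At 1 mg/kg on day 28, where Ucp3 had 1 read in 5 libraries, Cpt1b was at 12.8 ± 11.1 CPM, Acot1 at 244 ± 126 CPM against 0.905 in vehicle, and Pdk4 at 134 ± 50.6 CPM against 24.2. The receptor gene Ppara, which encodes PPARα, and the coactivator gene Ppargc1a were called at no dose on any day. Ppara had 11.2 CPM in vehicle and 27.9 CPM at 15 mg/kg on day 28 (edgeR adjusted p = 0.0751). Of 14 tested regulators, 2, 3 and 2 rose at 15 mg/kg on the 3 days and 0, 0 and 1 fell, among them on day 28 the lipogenic factor gene Srebf1 (log2 fold change 2.25 ± 0.39), the coactivator gene Ppargc1b (1.97 ± 0.58) and the receptor gene Ppard (-1.19 ± 0.43). Of 15 genes of oxidant defence and mitochondrial stress, 1, 1 and 1 rose and 2, 1 and 0 fell. On these days 6.77%, 12.7% and 8.89% of all genes rose and 7.21%, 10.2% and 8.31% fell, so the counts of this last list are near the background. The chaperonin gene Hspd1 went from 217 to 616 CPM on day 28.

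Across the 60 libraries the genes whose levels ran most like Ucp3 by Spearman's rho were Fabp3 (0.888), Snx10 (0.884), Otop1 (0.874), P2ry14 (0.861), Vldlr (0.861), Lpl (0.852), Fam83f (0.851) and Slc5a8 (0.848). The libraries share their doses, so these values describe the pattern only. Fabp3, the fatty acid binding protein of heart and muscle, went from 1.11 to 72.0 CPM at 15 mg/kg on day 28, Lpl, which frees fatty acids from lipoproteins, by a log2 fold change of 3.97 ± 0.48, and Vldlr, a lipoprotein receptor, from 0.748 to 15.7 CPM. Among the 10 companions the rho with Ucp3 ran from 0.845 for Cpt1b, 0.824 for Ehhadh and 0.815 for Pdk4 down to 0.137 for Ppara and -0.112 for Ppargc1a.

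Among the genes most like Ucp2, which were of another kind, were Pabpc4 (0.753), Kars (0.753), Rbm28 (0.748), Ctns (0.740), Pabpc1 (0.740), Selenon (0.737) and Qars (0.734). Pabpc1 and Pabpc4 encode poly(A)-binding proteins, and Kars and Qars encode aminoacyl-tRNA synthetases. Within groups, where dose and day are taken out, their correlations with Ucp2 were 0.60 to 0.68. For the genes listed beside Ucp3 the same values with Ucp3 were 0.44 to 0.77. All these genes were picked by rho in the same libraries. Ucp2 also followed the library score within groups (0.59), and the part of the score in these values was not tested. The rho between Ucp2 and Ucp3 themselves was 0.476.

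**Figure D5:**
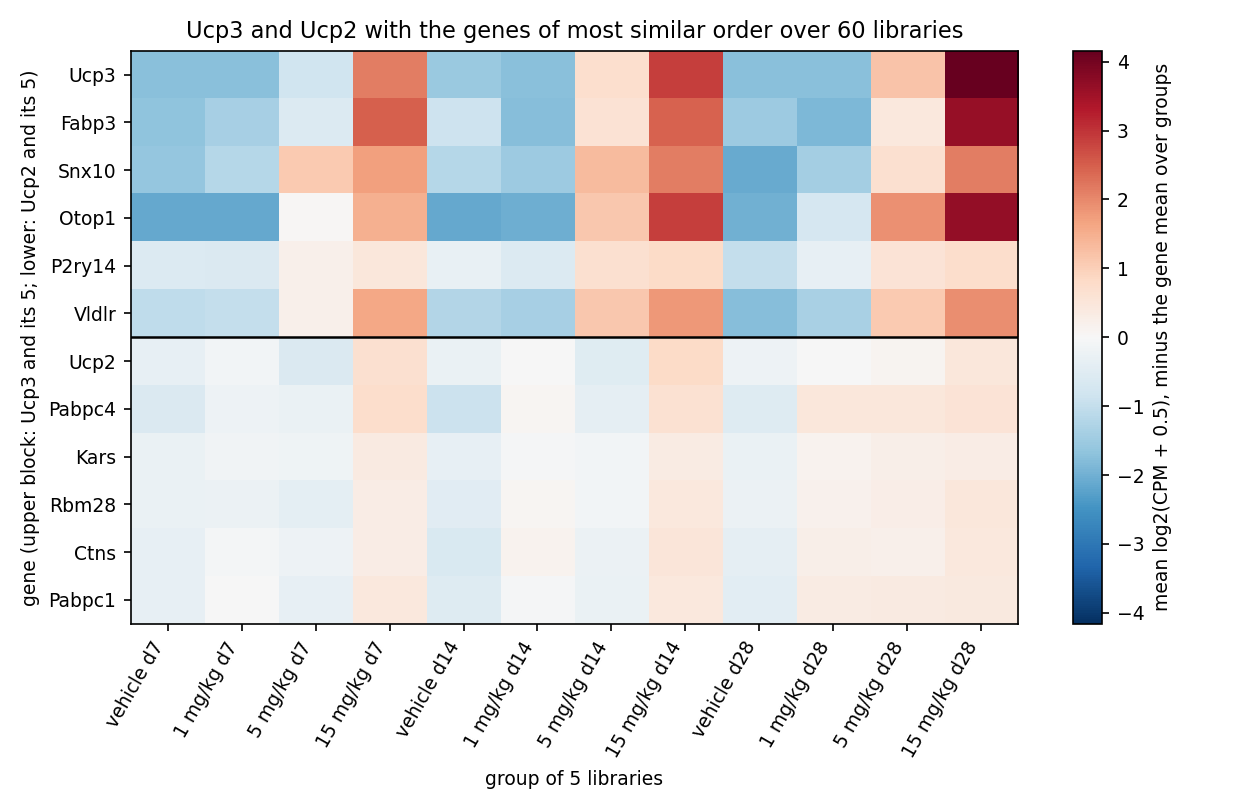
Mean log2(CPM + 0.5) in the 12 groups, minus each gene's mean over the groups (colour), for Ucp3 with the 5 genes most like it and Ucp2 with the 5 most like it by Spearman's rho over 60 libraries. The 5 genes beside Ucp3 (Fabp3, rho 0.888) and the 5 beside Ucp2 (Pabpc4, rho 0.753) are all higher at 15 mg/kg than in vehicle on all 3 days.

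The genes beside the pair were followed as well. In GRCr8 order the neighbours are Ppme1, C2cd3 and LOC120099892 on the Ucp3 side, and Dnajb13, LOC103691200 and LOC120099893 on the Ucp2 side. Ppme1, a protein phosphatase methylesterase gene, rose at 15 mg/kg on day 14 (9.45 to 19.7 CPM, log2 fold change 1.05 ± 0.35, edgeR adjusted p = 0.0222) and on day 28 (11.4 to 22.5 CPM, 0.99 ± 0.35, adjusted p = 0.0389). C2cd3, a centriole gene, was not called at any dose or day. Dnajb13, next to Ucp2, had a mean of 0.0653 CPM over all libraries and did not pass the filter. The 3 LOC entries had no row of that name in the counts.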

How the data were processed

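Liver RNA of 60 rats was measured by RNA-seq, 1 library per rat. The authors deposited raw read counts per gene, made, per the submitters' processing notes, with bcl2fastq 2.20.0.422, Trimmomatic 0.33, STAR 2.5.2b and featureCounts (Subread 1.6.0) on Rnor_6.0. The annotation release and strand setting are not given in the sources used here, so reads of overlapping genes may be shared. Rows without a symbol (10602, 1.39% of reads) stayed in.

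All 12 groups were fitted together by edgeR 4.0.16 (R 4.3.3; robust quasi-likelihood, TMM, prior count 0.125, 48 residual degrees of freedom) after filterByExpr (minimum count 10, minimum total 15). Adjustment ran over the 12167 genes tested. SE is the size of the log2 fold change divided by the square root of F. Bounds credit a group at 0 with 3 counts over its 5 libraries, and Poisson intervals (95%) and bounds cover counting error only. The Ucp3 share was tested exactly (SciPy 1.17.1). The library score averages 500 genes that follow the main axis of variation left once group means are removed. DESeq2 1.42.0 and limma-voom (limma 3.58.1) were alternatives. No 2 libraries of a group were copies (chi-square per degree of freedom at least 17.3). The fit was tested on simulated counts.

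Named genes were the pair, the other uncoupling proteins, 10 fixed companions, the 8 genes most like each member (1 of these is not reported here), the 3 annotated neighbours on each side and, from every other list, the 3 genes of lowest p at the top dose on day 28. Members and lists were chosen with earlier results of these data known. Promoters and gene order are of GRCr8, not the build of the counts, so no position was carried over.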

Additional observations from a re-analysis of the deposited data

Results flagged for a closer look

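Of 36 sets of 5 libraries examined for a single library far from the rest, a test that chance meets in about 1 of 20 sets, 5 were met. The Ucp2 level of rat 3 at 5 mg/kg on day 14 was 23.1 CPM, where the nearest of the other 4 was 8.20 CPM. At 1 mg/kg a single Ucp3 read set rat 5 of day 7 apart (0.0460 CPM, a Ucp3 share of 0.25%), and another set rat 1 of day 28 apart (0.0383 CPM, a share of 0.282%), in groups that were otherwise at 0. In such a group any single read meets the test, and each of these reads counts under both measures, so the share that chance gives does not apply to these 4 sets. Outside the tested genes, rat 5 at 5 mg/kg on day 14 held 122 reads of Ucp1, and no vehicle library held any.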

How the results depend on the processing

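Of 438 values recomputed under another setting or without 1 library, 402 kept their direction and side of the threshold. For Ucp3 at 5 and 15 mg/kg against vehicle 113 of 114 did, and the exception was 5 mg/kg on day 7 by limma-voom (3.16, adjusted p = 0.146). Not all of these values were free to change side. A prior count of 2 alters the size of a fold but not its p-value. Leaving out a vehicle library of day 7 or 28 removes no Ucp3 read. At 5 mg/kg on day 14, the fit without the library holding Ucp1 reads repeats the fit without rat 5. The size of the fitted Ucp3 folds depends on the prior count, since vehicle is at or near 0: with a prior count of 2 the log2 fold change at 15 mg/kg on day 28 went from 11.66 to 7.66, and it ran up to 11.89 under the other settings. The Ucp2 call at 15 mg/kg on day 7 was lost without the count filter (0.96, adjusted p = 0.0744), with the libraries of that day alone (0.92, adjusted p = 0.115) and without 7 of the 10 libraries in turn (range 0.73 to 1.16). Uncalled Ucp2 differences changed sign: at 1 mg/kg without 1 library on day 7 (-0.068 to 0.37) and with the library score on day 14 (-0.040) and day 28 (-0.020), and at 5 mg/kg on day 14 without the 3 libraries of score below -1.5 (0.087), without the library holding Ucp1 reads (0.050, chosen after seeing the data) or without 1 library (-0.59 to 0.050). The score also turned the Ucp2 change of effect from day 7 at 1 mg/kg (-0.15 to day 14, -0.13 to day 28) and at 15 mg/kg (-0.15 to day 14), and vehicle day 14 against day 7 (0.17). The cause was not tested. The Ucp3 share at 5 mg/kg on day 7 ranged from 3.94 to 6.04 percentage points without 1 library, with an exact p over 0.05 in 9 of 10. With the score in the fit, genes called at 15 mg/kg went from 14.0% to 37.8%, 22.8% to 41.6% and 17.2% to 35.4% on days 7, 14 and 28. No paired analysis was possible because the labels give each library as its own animal. Depth limits Ucp3 in vehicle and at 1 mg/kg, where a level under a few reads per group is not detectable.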
